A study of Mus musculus with 3 samples.

Results

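The 9 genes described here encode the G1 cyclins and the enzymes that work with them: the D-type cyclins Ccnd1, Ccnd2 and Ccnd3, the E-type cyclins Ccne1 and Ccne2, the cyclin-dependent kinases Cdk2, Cdk4 and Cdk6, and the phosphatase Cdc25a. They were taken by gene symbol from count tables of 24421 gene lines, and all 9 were found. The tables are RNA-seq of SB28, a transplantable mouse glioblastoma line on the C57BL/6 background. The line came from a brain tumour raised in a mouse by transposon transfer of mutant Nras, a Pdgf gene and a short hairpin RNA against Trp53, so every library carries those changes. All 3 libraries belong to this 1 group, the labels give brain as the source, and they name no untreated, normal or parental sample, so the values are levels within the line and differences between its libraries.

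D-type cyclins are the part of the cell cycle engine that responds to growth factors. They bind Cdk4 or Cdk6, and the complexes begin to phosphorylate the retinoblastoma protein, which releases E2F factors. E2F factors then raise the transcription of the E-type cyclins, which bind Cdk2 and carry the cell into S phase. Cdc25a removes inhibitory phosphates from Cdk2 and is also an E2F target. In human glioma, CDK4, CDK6 and CCND2 can be amplified.

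Counts assigned to genes totalled 36019009 in replicate 1, 28990128 in replicate 2 and 32632858 in replicate 3. Replicates 1 and 2 lay close together and replicate 3 stood apart from both: in a chi-square test of 12737 genes with Benjamini-Hochberg adjustment at 0.05, replicate 2 differed from replicate 1 in 1.89% of genes, while replicate 3 differed from replicate 1 in 64.3% and from replicate 2 in 62.6%. The share of reads that the counting assigned to no feature was 6.54% in replicate 3, against 5.19% and 5.27% in replicates 1 and 2. The labels do not say that the replicates came from separate cultures, so the spread among 3 libraries may be technical in part or whole. Every SD, and the permutation p of the gene pairs, covers that spread only. The chi-square p-values set the counts against pure counting noise and do not measure that spread. Markers were checked against the labelled source. Nes, Sox2, Vim and Cd44, markers of neural progenitors and glioma, were all detected, whereas Gfap and Aqp4 of astrocytes, Olig1 and Olig2 of the oligodendrocyte lineage, and Rbfox3 of neurons had 0 counts in every library. Other markers of these types were present at low levels: the astrocyte marker Aldh1l1 had 6.27, 5.83 and 4.63 CPM (counts scaled to a library of 1000000) in replicates 1, 2 and 3 and was the only one of 4 astrocyte markers detected, and the neuron marker Syt1 had 43, 25 and 1 counts. Each varied in the chi-square test, with its lowest value in replicate 3. None of 5 microglia and leukocyte markers reached 1 CPM in any library. Of 3 endothelial markers only Cdh5 was detected, at 303 CPM in replicate 3 and 379.9 and 371 CPM in replicates 1 and 2, while Cldn5 had 0 counts. In a bulk sample, fewer cells expressing a gene and less RNA per cell cannot be told apart.

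All 9 genes were detected, meaning at least 1 CPM in all 3 libraries, against 46.6% of all gene lines. To compare genes with each other, CPM was divided by the union exon length in kilobases. On this scale Ccnd1 and Cdk4 stood far above the rest and Cdk6 far below. Ccnd1 averaged 263 ± 4.77 CPM per kb (SD, n = 3), at percentile 98.97 of 11083 detected protein-coding genes, and Cdk4 averaged 131 ± 7.07 CPM per kb, at percentile 97.5. Ccnd2 (58.1 ± 6.47) and Ccnd3 (22.3 ± 1.54) came next at percentiles 93.3 and 78.9, followed by Ccne1 (15.1 ± 5.01) at 69.5 and Cdk2 (8.25 ± 1.13) at 51.8. Ccne2 (6.54 ± 3.24) and Cdc25a (6.33 ± 1.85) lay just under the middle, at 45.2 and 44.1. Cdk6 averaged 1.15 ± 0.0128 CPM per kb, at percentile 10.1. The median of the 9 genes was 15.1 CPM per kb, beside 7.75 over the detected protein-coding genes. The places at both ends depend on the length used. Cdk4 lay 2.27-fold above Ccnd2 per union exon length and 2.42-fold above it with the longest transcript. The ratio was instead 0.749 with coding length and 0.785 without length correction. Cdk6 stayed lowest, but Ccne2 lay 5.29-fold above it per union exon length, against 1.07-fold with coding length and 1.32-fold without correction, where the gap no longer exceeded the spread.

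**Figure D1:**
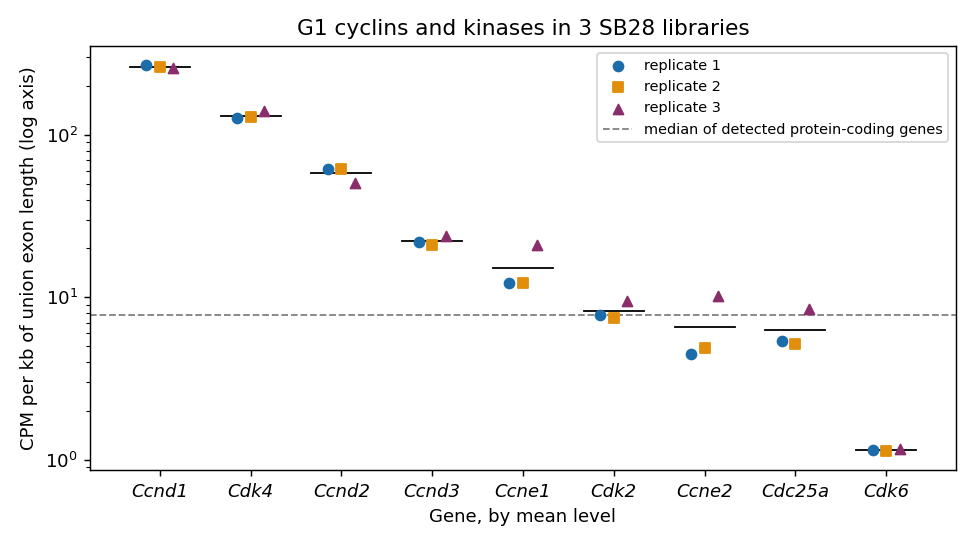
Level of each gene in the 3 SB28 libraries, in CPM per kb of union exon length on a log axis, with genes ordered by their mean, which a bar marks; the dashed line is the median of detected protein-coding genes, 7.75 CPM per kb. Ccnd1 and Cdk4 lie highest and Cdk6 lowest in every library, and for Ccne1, Ccne2 and Cdc25a the replicate 3 point lies apart from the other 2.

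All genes named as cyclins or cyclin-dependent kinases were ranked with Cdc25a by CPM per kb of union exon length, 51 genes in all. Ccnd1 ranked 1 and Cdk4 ranked 2. The next was Ccng1, a cyclin gene induced by p53, at 128 CPM per kb, so that Cdk4 and Ccng1 lay close. Other lengths were not used for this ranking. Among the 9 genes alone, Cdk4 ranked 3 by coding length and by CPM. Of the 42 cyclin and cyclin-dependent kinase genes other than the 9, 35 were detected, beside 46.6% of all gene lines. The median over all 42, detected or not, was 5.85 CPM per kb.

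Ordered by level, 5 of the 8 neighbouring pairs of the 9 genes differed by more than the spread between replicates, on the union exon scale. A pair was so called when its log2 ratio lay on one side of 0 in all 3 libraries and its mean exceeded 2 SD. Of those 5 steps, Cdk4 over Ccnd2 and Ccne1 over Cdk2 turned round with coding length and without length correction. The steps that did not pass were Ccnd3 over Ccne1 (1.53-fold, range over libraries 1.15 to 1.79), Cdk2 over Ccne2 (1.35-fold, 0.929 to 1.74) and Ccne2 over Cdc25a (0.986-fold, 0.832 to 1.21). All 3 passed with the other lengths: with the longest transcript, coding length and no correction the ratios were 2.61, 7.02 and 5.03 for Ccnd3 over Ccne1, 2.21, 2.81 and 2.40 for Cdk2 over Ccne2, and 0.536, 0.546 and 0.429 for Ccne2 over Cdc25a. Over all 36 pairs, 32 passed per union exon length, and the only non-neighbours that did not were Cdk2 and Cdc25a. With 3 libraries, the smallest two-sided p that an exact permutation of signs can give is 0.25 (0.265 adjusted over the 36 pairs), too high for any pair to pass 0.05.

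Among the D-type cyclins, Ccnd1 had 1265, 1233 and 1222 CPM in replicates 1, 2 and 3. The highest library was only 1.03-fold above the lowest. Ccnd2, a form that human gliomas can amplify, had 579, 583 and 476 CPM. It was lowest in replicate 3, while replicates 1 and 2 were nearly equal. Ccnd3, the third D-type cyclin, had 192, 184 and 211 CPM and was highest in replicate 3. Corrected for length, Ccnd1 made up 76.6% ± 0.919 of the D-type cyclin transcripts (SD, n = 3), Ccnd2 16.9% ± 1.52 and Ccnd3 6.50% ± 0.598. Ccnd1 lay 4.56-fold above Ccnd2 (range 4.22 to 5.13) and 11.8-fold above Ccnd3 (10.8 to 12.5), and Ccnd2 lay 2.59-fold above Ccnd3 (2.11 to 2.95). These 3 ratios kept their direction with every length used, but their size did not stay: with coding length they were 2.23, 6.28 and 2.81, and Ccnd1 was 62.2% ± 1.28 of the pool.

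Ccnd1 lies on mouse chromosome 7 at 144929931 to 144939925 on the minus strand (GRCm38), Ccnd2 on chromosome 6 at 127125162 to 127152193 on the minus strand, and Ccnd3 on chromosome 17 at 47505051 to 47599691 on the plus strand. Of the 4709 union exon bases of Ccnd1, 1100 overlapped the opposite-strand gene LTO1, listed in the files under its older symbol Oraov1. That gene had 289, 235 and 321 counts in replicates 1, 2 and 3, against 45579, 35747 and 39885 for Ccnd1. The strand setting of the counting is not given in the sources used here, so reads of such a stretch cannot be assigned to one of the genes, and a counter of this kind sets them aside as ambiguous when strand is ignored. Ccnd3 shared 361 bases with Bysl, which had 1880, 1519 and 2654 counts. Ccnd2 shared 372 bases with Gm43126 and 368 with 9330179D12Rik. Cdk6 shared 368 bases with Gm17590 and Cdk2 shared 34 with Pmel, all on opposite strands.

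Both D-type partner kinases were measured, and nearly all of the signal was Cdk4. Cdk4 had 411, 418 and 453 CPM in replicates 1, 2 and 3, and was highest in replicate 3 by 1.11-fold over the lowest library. Cdk6 had 16.1, 15.9 and 16.2 CPM. Its coefficient of variation over the libraries was 1.12%, under the 4.37% that counting error alone gives at its mean count, and its 3 libraries did not differ in the chi-square test (adjusted p = 0.941). Cdk4 made up 99.1% ± 0.0408 of the transcripts of the pair after length correction (SD, n = 3).

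The size of the gap between Cdk4 and Cdk6 depends on the length assumed for Cdk6, whose annotated exons add up to 13989 bases for a coding length of 978. Cdk4 has 3249 exon bases for a coding length of 909. Per union exon length Cdk4 lay 114-fold above Cdk6 (range 109.5 to 120.3 over the libraries), and with the longest transcript 149-fold. With coding length the ratio was 28.6 and without length correction 26.5. The direction was the same in all 4. Cdk2, the partner of the E-type cyclins, lay below Cdk4 and above Cdk6: Cdk4 exceeded it 16.0-fold (14.6 to 17.2) and it exceeded Cdk6 7.14-fold (6.57 to 8.23) per union exon length. With the longest transcript, coding length and no correction, Cdk4 exceeded Cdk2 13.3-fold, 9.55-fold and 8.36-fold, and Cdk2 exceeded Cdk6 11.2-fold, 2.99-fold and 3.17-fold. Of the Cdk4 exon bases, 641 overlapped the opposite-strand gene Tspan31, a tetraspanin gene with 3683, 3041 and 2995 counts.

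**Figure D2:**
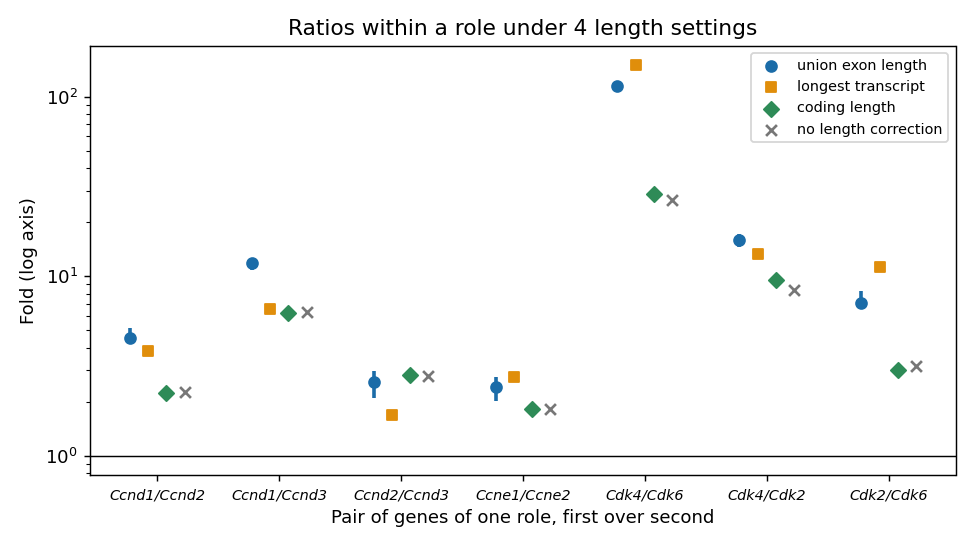
Fold between genes of one role, first over second, on a log axis, with the gene length taken as union exon length, longest transcript or coding length, and without length correction; the blue bar is the range over the 3 libraries for union exon length. Every ratio lies above 1 in each setting, and the Cdk4 over Cdk6 ratio moves between 26.5 and 149.

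Promoter windows were searched for short sequence motifs. RefSeq windows of 300 bases (GRCm38.p6), from 250 before to 50 after the transcription start, were matched for 6 of the 9 genes: Ccnd3, Ccne1, Cdk2, Cdk4, Cdk6 and Cdc25a. Ccnd1, Ccnd2 and Ccne2 were not matched. The letters CACGTG, the E-box that MYC and MAX can bind, TGANTCA of the AP-1 type, TGACGTCA of the CRE type, and 3 spellings of the E2F type (TTTCGCGC, TTTGGCGC and TTCCCGCC) were searched on both strands. The 250 bases before the start are shown for the 3 genes whose windows held a match, 5′ to 3′ on the strand of the gene and with matches in capitals.

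Cdk4, chr10:127063285-127063534, plus strand: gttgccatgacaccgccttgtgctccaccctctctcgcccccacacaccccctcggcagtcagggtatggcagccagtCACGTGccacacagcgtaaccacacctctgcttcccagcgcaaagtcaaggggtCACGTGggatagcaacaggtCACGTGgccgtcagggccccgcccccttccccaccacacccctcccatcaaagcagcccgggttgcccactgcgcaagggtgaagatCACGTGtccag

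Cdk6, chr5:3343643-3343892, plus strand: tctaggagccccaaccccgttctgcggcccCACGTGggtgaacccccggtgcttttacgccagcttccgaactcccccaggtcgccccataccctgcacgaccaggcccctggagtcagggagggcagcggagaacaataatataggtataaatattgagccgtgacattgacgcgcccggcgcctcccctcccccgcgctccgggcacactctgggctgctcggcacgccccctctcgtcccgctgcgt

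Cdc25a, chr9:109875329-109875578, plus strand: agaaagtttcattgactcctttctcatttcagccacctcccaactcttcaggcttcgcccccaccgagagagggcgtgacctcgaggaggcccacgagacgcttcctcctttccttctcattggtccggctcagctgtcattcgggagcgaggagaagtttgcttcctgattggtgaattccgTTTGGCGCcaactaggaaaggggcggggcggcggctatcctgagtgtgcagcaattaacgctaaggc

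The Cdk4 window held CACGTG at 4 places, with first bases at -172, -118, -98 and -11 from the start. Among 32851 windows of the same length, 7.15% held CACGTG at least once, and 8 windows (0.0244%) held it at 4 or more places. The Cdk6 window held it once, at -220. Its start lies inside the annotated Cdk6 gene, which begins at 3341485, whereas the Cdk4 window ends at the first base of the annotated Cdk4 gene. The Cdc25a window held the E2F-type letters TTTGGCGC at -67, a spelling found in 0.514% of windows, and 2.96% held any of the 3 E2F spellings. No match to the searched letters lay in the windows of Ccne1, Cdk2 or in either of the Ccnd3 windows. A match is a description of the letters and not evidence of binding.

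The E-type cyclins were lower than the D-type and less even between libraries. Ccne1 had 32.5, 32.5 and 55.6 CPM in replicates 1, 2 and 3. Ccne2 had 15.6, 17.1 and 35.9 CPM. Both were highest in replicate 3, by 1.72-fold and 2.31-fold over the lowest library, while replicates 1 and 2 were close. Corrected for length, Ccne1 lay 2.40-fold above Ccne2 (range 2.03 to 2.73), a gap that exceeded the replicate spread, and made up 70.6% ± 3.18 of the E-type pool (SD, n = 3). Cdc25a had 43.1, 41.4 and 67.9 CPM and was also highest in replicate 3, by 1.65-fold. Cdk2 had 48.3, 46.4 and 59.4 CPM and was highest there by 1.28-fold. Ccne1 lay 2.37-fold above Cdc25a per union exon length (2.28 to 2.47), but the log2 ratio turned to -0.014 with coding length and to -0.35 without length correction. Ccne1 likewise lay 1.78-fold above Cdk2 (1.57 to 2.19), with a log2 ratio of -0.63 with coding length and -0.39 without correction.

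Ccne1 lies on chromosome 7 at 38097984 to 38107534 on the minus strand, and Ccne2 on chromosome 4 at 11191351 to 11204779 on the plus strand, where 609 of its 3495 exon bases overlap Ints8, a gene with 2962, 2391 and 2677 counts. Cdk2 and Cdk4 both lie on chromosome 10, at 128697939 to 128705031 on the minus strand and at 127063534 to 127067920 on the plus strand. Cdk6 lies on chromosome 5 at 3341485 to 3531008, and Cdc25a on chromosome 9 at 109875579 to 109893895, both on the plus strand. Of the annotated transcripts of Ccne1 and Cdc25a, 0% of the 50-base words recurred in another gene, and 0.062% of those of Cdk2. The share was 21.6% for Ccnd1 and 14.4% for Ccne2, each with 1 other gene, and 6.31% for Ccnd2 with 2 others. It was 17.0% for Cdk4, whose words recurred in 67 other genes, 5.39% for Ccnd3 with 46 and 3.32% for Cdk6 with 425. Words were matched on either strand, so stretches shared with opposite-strand genes such as LTO1, Ints8 and Tspan31 count towards these shares.

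By role, the D-type cyclins summed to 352, 345 and 334 CPM per kb in replicates 1, 2 and 3, and the E-type cyclins to 16.7, 17.1 and 31.1. The D-type sum was therefore 21.1, 20.2 and 10.7 times the E-type sum, lowest in replicate 3. Against their kinases, the D-type sum was 2.60 ± 0.2005 times that of Cdk4 and Cdk6, and the E-type sum was 2.57 ± 0.606 times Cdk2 (SD, n = 3). With coding length these 2 ratios were 4.65 ± 0.388 and 1.02 ± 0.252. The sum of Cdk4 and Cdk6 was 16.2 ± 1.34 times Cdk2 per union exon length and 9.91 ± 0.829 times with coding length. These are ratios of transcript levels and say nothing of protein.

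Variation between libraries was tested against pure counting noise with the chi-square test, for the 12737 genes whose counts averaged 10 or more. Of these, 65.8% varied, so that most genes passed at this depth, and 8 of the 9 genes did, a share read only against that background. In these libraries 32.6% of genes varied and were highest in replicate 3 and 32.0% varied and were lowest there. Of the 9, Ccnd3, Ccne1, Ccne2, Cdk2, Cdk4 and Cdc25a varied and were highest in replicate 3, and Ccnd1 and Ccnd2 varied and were lowest there. The adjusted p was 5.77e-80 for Ccne2, 1.04e-62 for Ccne1, 2.72e-61 for Cdc25a and 3.30e-92 for Ccnd2. These values depend on read depth as well as on the size of the difference. The highest library was 1.22-fold above the lowest for Ccnd2, against 2.31-fold for Ccne2. The test leaves out the common dispersion between libraries, which edgeR put at 0.0294. For Ccnd1 the adjusted p was 7.96e-06. Its difference was the smallest in size of those that passed, and its lowest library was replicate 2 under DESeq2 size factors. The median fold between the highest and the lowest library was 1.22 for the 9 genes and 1.23 for all genes tested. A level in replicate 3 that was highest and at least 1.5-fold above the lowest library, as for Ccne1, Ccne2 and Cdc25a, was found in 7.33% of all genes. Without replicate 3, only Ccnd1 varied.

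**Figure D3:**
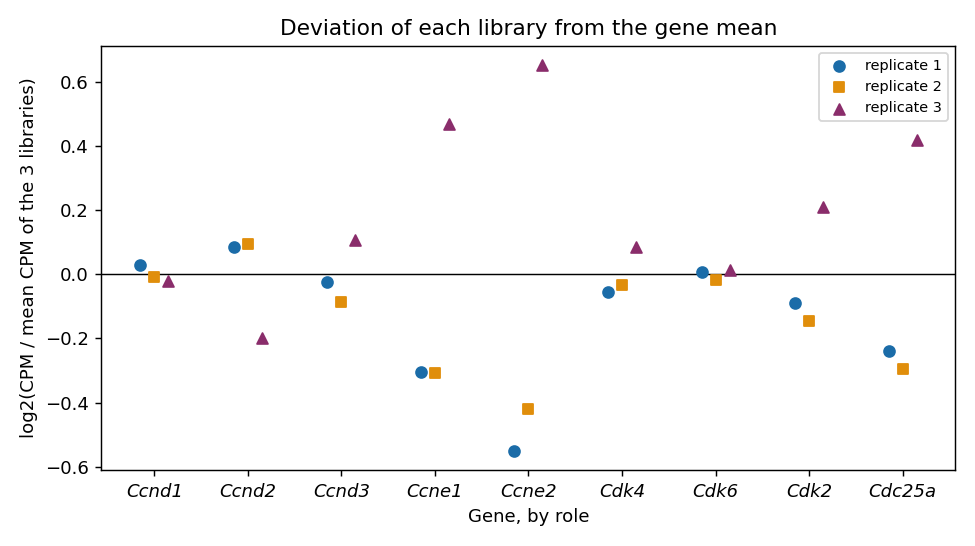
Deviation of each SB28 library from the mean of the 3 libraries for each gene, as log2(CPM / mean CPM), with genes grouped by role. Replicate 3 lies far above replicates 1 and 2 for Ccne1, Ccne2 and Cdc25a and below both for Ccnd2, while the 3 points of Ccnd1 and Cdk6 nearly coincide.

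Other genes of the pathway were counted in the same way. All 16 G1/S target genes, which work in DNA replication and nucleotide synthesis, varied and were highest in replicate 3, against 32.6% of all genes. They were led per kb by the sliding clamp Pcna, with 229 CPM in replicate 3 and 190.4 and 197 CPM in replicates 1 and 2, and by the helicase subunit Mcm4. The S and M phase cyclins and Cdk1 had 4 of 5 members detected, and 3 of the 4 tested varied and were highest in replicate 3, beside 65.8% of all genes that varied and 32.6% that varied and were highest there. Ccna2, the cyclin that follows cyclin E on Cdk2, had 276 CPM there, against 171 and 170.5 CPM in replicates 1 and 2. Ccnb2 did not vary (adjusted p = 0.684), and Ccna1 lay below 1 CPM in all libraries. Markers of proliferating cells moved in the same way: all 4 (Mki67, Top2a, Aurkb and Birc5) were highest in replicate 3, and summed to 1199 CPM there, against 701 and 741 CPM in replicates 1 and 2. Their part in the values of Ccne1, Ccne2 and Cdc25a was not tested.

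Most inhibitors of these kinases were lowest in replicate 3. All 7 were detected. Of the 7, 6 varied, beside 65.8% of all genes, and 5 varied and were lowest in replicate 3, beside 32.0% of all genes. Cdkn2a, which encodes p16INK4a, an inhibitor of Cdk4 and Cdk6, and p19ARF from one locus, had 242 CPM in replicate 3, against 419.5 and 424 CPM in replicates 1 and 2. Per kb of union exon length it had 207 CPM in replicate 3, against 358 and 362 in replicates 1 and 2, so that it lay below Ccnd1 in replicate 3 and above it in the other libraries. Without length correction it averaged 362 CPM, below the 1240.2 CPM of Ccnd1. Cdkn2b, the neighbouring INK4 inhibitor, had 48.9 CPM, against 94.7 and 90.2. Cdkn1a, the p53 target p21, had 74.4 CPM, against 160.5 and 164 CPM, Cdkn1b (p27) had 31.8, against 46.8 and 45.6, and Cdkn1c (p57) had 5.94, against 12.3 and 13.0. Cdkn2d was highest in replicate 3, at 22.2 CPM against 17.5 in both of the others, and Cdkn2c did not vary (33.5 CPM, against 35.8 and 34.0).

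Of the 13 pocket proteins, E2F factors and DP partners, all were detected and 12 varied, beside 65.8% of all genes. Of the 13, 9 varied and were highest in replicate 3, beside 32.6% of all genes, and 3 varied and were lowest there, beside 32.0%. Rb1, which restrains E2F until it is phosphorylated, was low at 12.4 CPM in replicate 3, against 17.8 and 19.1 CPM in replicates 1 and 2. Its relative Rbl2 (p130) was also lowest in replicate 3, at 35.9 CPM against 47.9 and 46.2. Rbl1 (p107), itself an E2F target, was highest there, at 42.0 CPM against 29.7 and 30.1. The list was led per kb by Tfdp1, the DP partner, and E2f4. Of 10 genes for kinase activation and inhibition, 10 were detected and 7 varied, near the 65.8% of all genes, and 6 of the 10 varied and were highest in replicate 3, beside 32.6% of all genes. The kinase chaperone Cdc37, which loads Cdk4 onto Hsp90, led them at 34.1 CPM per kb, followed by the Cdc25a relative Cdc25b. Of 11 cyclin turnover genes all were detected and 6 varied, 3 of them highest and 3 lowest in replicate 3. These shares lay near or below the 65.8%, 32.6% and 32.0% of all genes. The ubiquitin ligase partners Cks1b and Skp1a led them per kb. Under total-count scaling and DESeq2 size factors these list counts were the same, except that 5 turnover genes varied under DESeq2 size factors, 2 of them lowest in replicate 3.

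**Figure D4:**
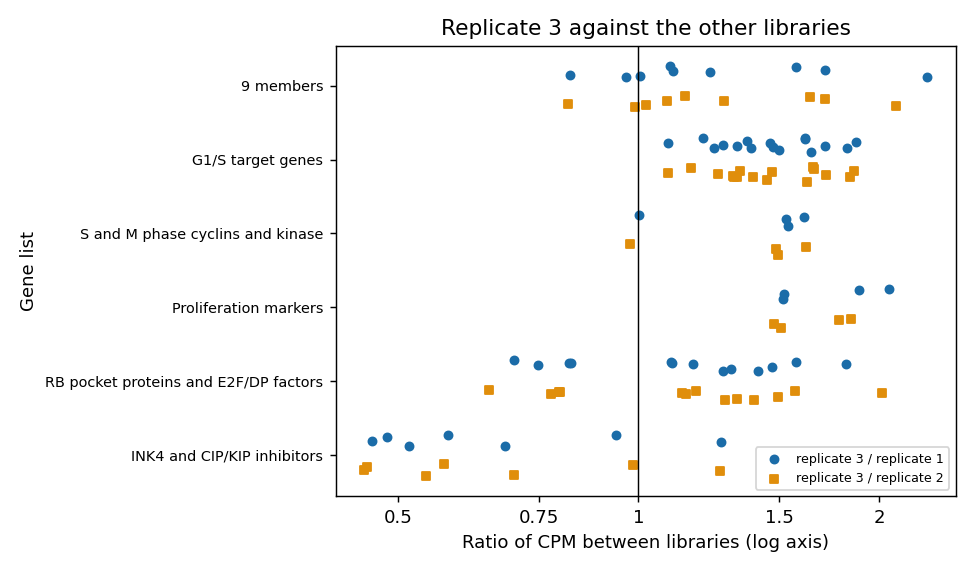
Ratio of CPM in replicate 3 to replicate 1 (circles) and to replicate 2 (squares), on a log axis, for each detected gene of 6 lists. The G1/S target genes and proliferation markers all lie above 1, 6 of the 7 inhibitors lie below 1, and the 9 genes lie on both sides, with Ccne2 farthest above and Ccnd2 farthest below.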

How the data were processed

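RNA-seq libraries of SB28 (1 group, 3 replicates) were made from total RNA with a TruSeq kit, per the labels' protocols. The authors deposited unnormalized read counts, listed by gene symbol for each library, with summary lines for unassigned reads. Bowtie2 2.2.4, HTSeq and the mm10 build were used, per the submitters' processing notes; options, annotation and strand setting are not given in the sources used here. Such counting drops reads placed at more than 1 position or in overlapping genes.

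CPM was computed over counts assigned to genes. Lengths and positions came from GENCODE M21 (GRCm38): 23350 symbols matched directly, 668 through RefSeq synonyms and 401 not, with 0.764% of counts. Pair ratios used log2((count + 0.5) / length). TMM factors came from edgeR 4.0.16 and size factors from DESeq2 1.42.0 (R 4.3.3); edgeR's common dispersion was 0.0294. Other steps used Python 3.11.15, numpy 2.4.6, scipy 1.17.1 and pandas 2.3.3. The chi-square step was run on counts simulated with counting noise only. Those counts left out the dispersion between libraries, so they do not give the error rate of the step here. With 1 group no test between conditions was possible. Alternatives varied the gene length, scaling, pseudocount, count filter, thresholds and libraries.

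The 9 genes and all lists were chosen with earlier results of these data known. Named genes are the 9, genes sharing exon bases with them, and all inhibitors and pocket proteins. Of each other pathway list, the 2 highest per kb and up to 4 undetected members are named. Marker genes are named for the source check. SB28's origin is background knowledge, not from the labels. Protein sequences were not used here.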

Additional observations from a re-analysis of the deposited data

How the results depend on the processing

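The 9 genes were all detected at 0.5 and at 5 CPM. Between 32 and 35 of the 36 pairs exceeded the spread in every setting run. Setting replicate 3 aside changed the variation between libraries most: leaving out 1 replicate gave 1 to 8 varying members of the 9 and 241 to 8186 varying genes of all tested, both lowest without replicate 3. Scaling, the count filter and an adjusted p threshold of 0.01 left the count of members at 8. Without replicate 1, Ccnd1 no longer varied.

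With coding length the log2 ratio was -0.42 for Cdk4 over Ccnd2, -0.63 for Ccne1 over Cdk2 and -0.014 for Ccne1 over Cdc25a, and without length correction -0.35, -0.39 and -0.35. The ratio of Ccne2 to Cdc25a, -0.02 on the log2 scale, ranged over -0.171 to 0.101 when 1 replicate was left out: it was positive without replicate 1 and, at 0.007, without replicate 2. It was 0.054 with the mean of replicates 1 and 2 taken as 1 library, and 0.26 without exon bases shared with a listed gene. With the longest transcript, coding length and no correction it was -0.90, -0.87 and -1.22, past the spread. The settings with the mean of replicates 1 and 2 and without shared exon bases, and those for sums by role, were chosen after seeing the data. The D-type to E-type ratio averaged 17.3 over the libraries, 18.4 with the longest transcript and 47.9 with coding length. Ccne1 over Cdk2 no longer passed with the longest transcript, at 0.31 on the log2 scale. No paired analysis was possible because there is 1 group. Counts do not separate isoforms, and levels compared between genes are bounded by the annotated lengths. The smallest member count was 460, for Cdk6, whose spread over libraries lay under its counting error.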
